A study of Mus musculus with 9 samples.

Results

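Astrocytes are the glia that take up synaptic glutamate, move water and ions, and make much of the cholesterol that neurons use. With age they are known to raise complement and interferon-stimulated genes and to lower sterol synthesis. Type-I interferons act through a receptor that needs Ifnar1 and interferon gamma through one that needs Ifngr1, so the question here is how astrocytes change with age when both receptors are missing.

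The astrocytes came from the ventricular-subventricular zone (vSVZ), the stem cell niche along the lateral ventricle, of IFNAGR KO mice. They were chosen by their own UMI counts (unique molecular identifiers, which count captured RNA molecules). A cell had 1000 to 20000 UMIs, under 10% of them mitochondrial, at least 5 UMIs summed over the astrocyte genes Slc1a2, Slc1a3 and Aqp4, 0 UMIs of Thbs4, Ecel1, Frzb, Top2a and Mki67, and at most 1 of Dcx. Thbs4, Ecel1 and Frzb are stem cell genes, Top2a and Mki67 mark dividing cells, and Dcx marks neuroblasts. A cell was given to a mouse when the largest of its 4 hashtags, the barcoded antibodies that label each mouse and tissue, had at least 5 counts and at least 60% of the counts of all 4. Cells with a vSVZ hashtag were kept. These rules gave 746 cells, 346 of KO young and 400 of KO old mice, of 18390 cells within the depth and mitochondrial limits in all 4 libraries.

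KO young and KO old mice were of strain TiCY-IFNAGRKO, which lacks Ifnar1 and Ifngr1 and carries a tamoxifen-inducible Cre driven by the stem cell gene Tlx (Nr2e1) with an eYFP reporter. All mice received tamoxifen. KO young mice were 16 weeks old, with tamoxifen at 7 weeks and a chase of 9 weeks. KO old mice were labelled 92 to 105 weeks old, with tamoxifen at 85 or 98 weeks and a chase of 9 weeks, which do not add up to the labelled ages, and no source ties an age to a hashtag. WT mice of strain TiCY, used to set a wild-type change beside the knockout one, were 16 weeks old (tamoxifen at 10 weeks, chase of 6) or 80 weeks old (tamoxifen at 71 weeks, chase of 9). The vSVZ sort took eYFP+ cells and GLAST+ cells after removal of CD45+, Ter119+ and O4+ cells. Each group was 1 droplet reaction holding 2 mice, so the group and its reaction cannot be told apart, and each p below measures the spread between mice within reactions.

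The 161 and 185 cells of the KO young mice held 1360316 and 1541205 UMIs, and the 284 and 116 cells of the KO old mice held 2111209 and 871087 UMIs. Median UMIs per cell were 8489 and 8235 in the young and 7243 and 7089.5 in the old mice. Among the 746 cells, 0 barcode sequences occurred in both the KO young and the KO old library. Among all 18390 cells, 30 sequences occurred in more than 1 library. The median marker sum was 111 UMIs in KO young and 100 in KO old cells, and sums of 3, 4, 5 and 6 UMIs, just outside and inside the limit, each held 0 to 3 cells per group. Levels are given as CPM, the UMIs of a gene per 1000000 UMIs of the mouse, scaled by the trimmed mean of M values (TMM), so a change is relative to the bulk of the genes. Where paired values are set against each other, the KO young (or WT young) mice come first.

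The targeted receptors followed the labels. Ifngr1 (ENSMUSG00000020009) stood at 2.98 and 3.34 CPM in KO young and 2.85 and 5.98 CPM in KO old mice, against 76.4 and 86.4 CPM in WT young and 63.9 and 83.1 CPM in WT old mice. Ifnar1 (ENSMUSG00000022967) stood at 1.49 and 0.667 CPM in KO young and 6.18 and 1.2 CPM in KO old mice, against 28.7 and 32.8 CPM in WT young and 19.97 and 36.4 CPM in WT old mice. No KO mouse reached a WT mouse for either gene.

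Astrocyte markers outside the rule were present at both ages. All 14 were abundant enough to test, and 0 of 14 passed the edgeR test for age, beside 0.831% of all genes. Their summed level was 13516 and 14678 CPM in KO young and 13145 and 14206 CPM in KO old mice. The cells also held stem cell genes, with Egfr UMIs in 47.8% and 42.7% of KO young and 38.0% and 36.2% of KO old cells. Leaving out cells with stem cell gene UMIs kept 47 of 161 and 64 of 185 KO young cells. Of KO old cells it kept 139 of 284 and 57 of 116, and the calls in these cells are given with the alternatives. Of the genes the rule used, which were not tested, Slc1a2 (the glutamate transporter GLT-1) stood at 10030.4 and 10487 CPM in KO young and 10714 and 11758 CPM in KO old mice. Slc1a3 (the glutamate transporter GLAST) stood at 3293 and 3437 against 3233 and 3899 CPM, and Aqp4 (the water channel) at 755 and 728 against 656 and 622 CPM.

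Ageing without the receptors moved few genes past the threshold. Of 9030 genes tested with edgeR's quasi-likelihood test, 75 (0.831%) had a Benjamini-Hochberg adjusted p under 0.05, of which 39 (0.432%) were higher and 36 (0.399%) lower in KO old mice. The rises included the complement gene C4b, the antiviral gene Zc3hav1, the immunoproteasome gene Psmb8 and the elastic fibre gene Fbln5. The falls included 6 genes of cholesterol synthesis, led by Hmgcs1, and several genes of young neurons. In all 75 the old mice lay clear of the young mice, which a test between so few mice favours. Over all genes tested, both old mice lay below both young mice in 20.2% and above them in 20.4%. The median change over all genes tested was 0.0028 on the log2 scale, and 901 genes had an unadjusted p under 0.05.

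**Figure D1:**
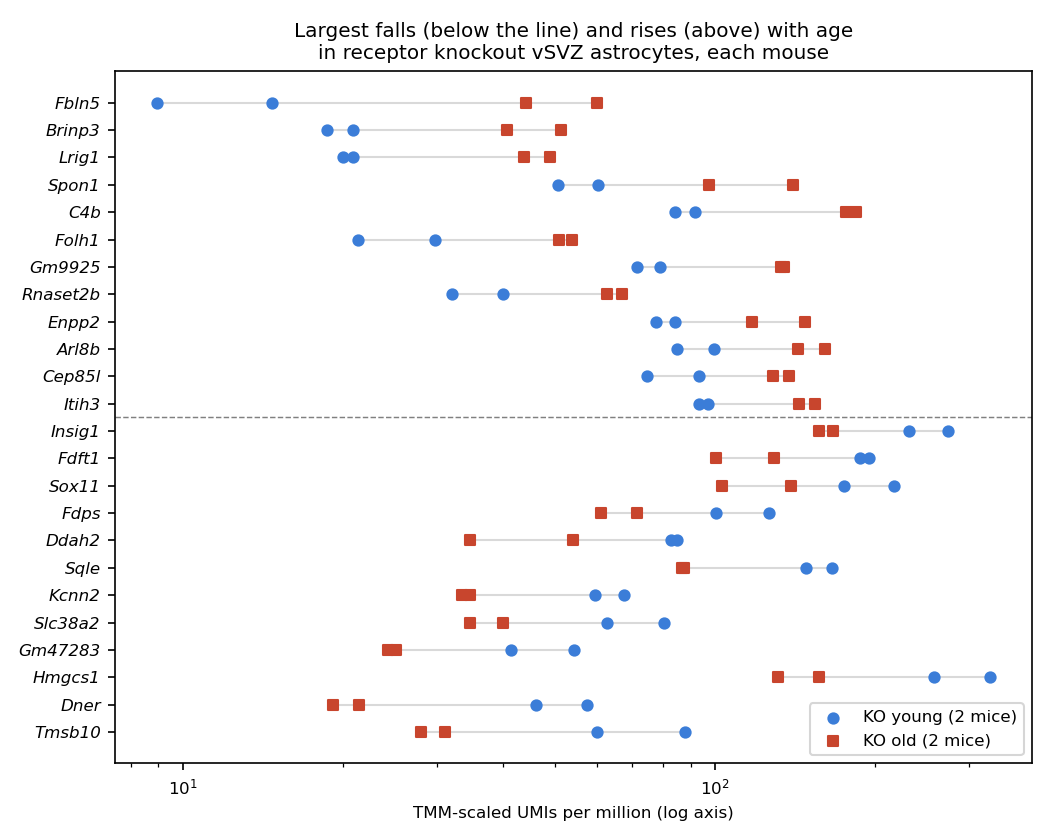
Level in each mouse of the 12 largest rises and 12 largest falls with age among genes past the threshold with a mean of at least 30 CPM, in KO vSVZ astrocytes. Circles are KO young and squares KO old mice on a log axis of CPM. C4b stood at 91.6 and 84.1 CPM in the young and 176 and 184 CPM in the old mice, and Hmgcs1 at 329 and 258 against 157 and 132 CPM.

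Complement and antiviral genes were among the rises. C4b (ENSMUSG00000073418, chromosome 17, 34728380 to 34743882 on GRCm38), complement component 4, stood at 91.6 and 84.1 CPM in KO young and 176 and 184 CPM in KO old mice. Both old mice were above both young mice, and C4b rose by 1.03 on the log2 scale (SE 0.14, edgeR adjusted p = 4.14e-05). In WT astrocytes it went from 64.7 and 82.9 to 170.4 and 139.8 CPM (log2 1.09, edgeR adjusted p = 7.06e-05), and the difference between the genotypes was -0.06 (SE 0.23, edgeR adjusted p = 0.959). Droplets with 5 to 100 UMIs, which hold mainly free RNA, had C4b at 18.4 CPM (not TMM-scaled) in the KO young and 106 CPM in the KO old library, so free C4b RNA moved the same way at a lower level, and its part in the rise was not tested. Of 16 complement genes on the list, C4b was the only member abundant enough to test.

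Zc3hav1, the zinc finger antiviral protein that binds CpG-rich viral RNA, stood at 5.22 and 5.34 CPM in KO young and 32.3 and 49.03 CPM in KO old mice. The groups did not overlap (log2 2.84, SE 0.38, edgeR adjusted p = 3.11e-05). Psmb8, the immunoproteasome subunit that helps cut peptides for MHC class I, stood at 2.24 and 0 CPM in KO young mice, from 3 and 0 UMIs, and at 17.1 and 16.7 CPM in KO old mice (log2 3.87, SE 0.68, edgeR adjusted p = 0.00122). The young level rests on so few molecules that the size of the Psmb8 rise is poorly known. Near-empty droplets had Zc3hav1 at 0 and 18.99 CPM and Psmb8 at 0 and 6.42 CPM in KO young and KO old, and the part of free RNA was not tested. In WT mice Zc3hav1 rose as well, from 11.7 and 6.91 to 41.3 and 26.3 CPM (edgeR adjusted p = 0.00721), and Psmb8 stood at 13.8 and 5.18 against 13.3 and 15.3 CPM (edgeR adjusted p = 0.665), with a difference between the genotypes that did not pass (interaction log2 3.39, SE 0.93, edgeR adjusted p = 0.056).

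Both genes are known targets of interferon, so their promoters are shown, 250 bases before to 50 after the start site, 5′ to 3′ on the gene's strand. The interferon-stimulated response element, searched as GAAA, any 2 bases and GAAA again, and the letters TTCNNNGAA, the gamma-activated site of STAT factors, were sought on both strands, with matches in capitals. Psmb8 held 1 TTCNNNGAA, whose letters read the same on both strands, and Zc3hav1 held neither in this window. The Psmb8 window lies wholly inside the annotated gene, which runs from 34197721 to 34201454 on the plus strand. Its start site is thus an internal one, and the bases before the annotated start were not searched. Of 32851 mouse promoters of this length from RefSeq (GRCm38.p6), 3.44% held the response element and 8.30% held TTCNNNGAA.
Psmb8, chr17:34197945-34198244, plus strand: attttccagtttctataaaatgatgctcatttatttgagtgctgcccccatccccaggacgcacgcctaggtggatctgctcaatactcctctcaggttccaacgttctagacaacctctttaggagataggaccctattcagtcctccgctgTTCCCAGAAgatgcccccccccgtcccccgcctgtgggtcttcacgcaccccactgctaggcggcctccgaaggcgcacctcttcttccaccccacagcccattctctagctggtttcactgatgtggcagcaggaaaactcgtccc
Zc3hav1, chr6:38354554-38354853, minus strand: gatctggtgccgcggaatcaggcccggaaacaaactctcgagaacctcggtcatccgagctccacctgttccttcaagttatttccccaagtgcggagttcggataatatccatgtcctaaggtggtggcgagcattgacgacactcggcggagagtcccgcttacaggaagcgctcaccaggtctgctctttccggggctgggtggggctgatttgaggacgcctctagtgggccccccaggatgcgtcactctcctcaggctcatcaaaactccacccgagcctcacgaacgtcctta

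Lists of interferon-stimulated genes gave 4 calls in KO astrocytes. The study's NSC type-I interferon response, 300 genes chosen in cultured stem cells treated with interferon and not in these libraries, had 119 tested members, of which 4 rose (C4b, Zc3hav1, Psmb8 and Pik3ip1) and 0 fell, beside 0.432% of all genes called higher and 0.399% called lower. Its median change was 0.08 on the log2 scale, and its summed level was 9773 and 10428 CPM in KO young and 10399.8 and 10929 CPM in KO old mice. Pik3ip1, an inhibitor of PI3 kinase, went from 109 and 107 to 157 and 178 CPM (log2 0.62, SE 0.14, edgeR adjusted p = 0.0116). In WT astrocytes 8 members of this list rose and 3 fell, beside 7.32% of all genes called in either direction, with a median of 0.24.

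A shorter list of textbook interferon-stimulated genes had 15 tested members, 0 past the edgeR threshold, and a median of 0.33 (0.59 in WT). Of these 11 were on the higher and 4 on the lower side, beside 49.6% of all genes on the lower side. Ifit3b, of the IFIT family that binds foreign RNA and with a close copy in Ifit3, stood at 16.4 and 19.4 CPM in KO young and 35.2 and 32.3 CPM in KO old mice (edgeR adjusted p = 0.119). Rsad2 (viperin) stood at 0.745 and 4.005 against 9.99 and 11.96 CPM (edgeR adjusted p = 0.241). Ifitm2, of the family that blocks virus entry, lay the other way at 14.2 and 32.7 against 9.04 and 10.8 CPM (edgeR adjusted p = 0.119).

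Antigen presentation and interferon signalling gave 1 call between them. Beside Psmb8, the other 13 of 14 tested antigen presentation genes did not pass. H2-K1, a class I heavy chain, stood at 168 and 195 CPM in KO young and 188 and 196 CPM in KO old mice, and the peptide transporter Tap1 at 4.47 and 2.002 against 8.56 and 13.2 CPM (edgeR adjusted p = 0.309). Of 17 tested receptors and transducers 0 passed the edgeR test. Jak1, a kinase of both receptors, stood at 174 and 179 against 185 and 179 CPM.

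Genes of matrix and of reactive glia split. Of 21 tested matrix and adhesion genes 1 (Itih3, described with the other rises) rose and 1 (Ncan, described with the falls) fell. Their median was -0.02. Of 8 tested reactive genes 2 rose, Fbln5 and Ggta1. Over all genes 0.432% were called higher and 0.399% lower. Fbln5 (fibulin-5), which helps assemble elastic fibres, stood at 8.94 and 14.7 CPM in KO young and 59.9 and 44.2 CPM in KO old mice, without overlap (log2 2.17, SE 0.29, edgeR adjusted p = 3.11e-05). Ggta1, a galactosyltransferase on lists of reactive astrocyte genes, went from 10.4 and 8.68 to 25.7 and 32.3 CPM (log2 1.55, SE 0.33, edgeR adjusted p = 0.0108). The other 6 of 8 tested reactive genes did not pass, and the list's median was -0.19 on the log2 scale. Gfap, the best known of them, stood at 36.5 and 28.7 against 30.4 and 32.3 CPM, and Vim (vimentin) at 129 and 124 against 76.6 and 86.1 CPM (edgeR adjusted p = 0.551).

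Other rises were of single genes. Spon1 (F-spondin), an extracellular adhesion protein, went from 60.4 and 50.7 to 97.5 and 139.9 CPM (log2 1.04, SE 0.18, edgeR adjusted p = 0.00122). Enpp2 (autotaxin), which makes lysophosphatidic acid, went from 84.2 and 77.4 to 148 and 117 CPM (log2 0.75, edgeR adjusted p = 0.00567), while near-empty droplets had it at 68.96 and 160.5 CPM in KO young and KO old, close to the level in the cells, and the part of free RNA was not tested. Itih3, a chain that binds hyaluronan, went from 96.9 and 93.4 to 144 and 154 CPM. Both old mice exceeded both young mice in each of them. Lrig1, a brake on growth factor receptors, went from 20.9 and 20.02 to 43.8 and 49.03 CPM. Folh1, a peptidase that releases glutamate from N-acetylaspartylglutamate, went from 29.8 and 21.4 to 50.9 and 53.8 CPM. Brinp3, Arl8b (a GTPase of lysosome transport), Cep85l, Gm9925 and Rnaset2b were also among the 12 largest rises, with log2 changes from 0.65 (Cep85l) to 1.26 (Brinp3). Rnaset2b has a near-identical copy, so its reads may be split by counting.

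Transport, redox and Wnt genes gave single rises. Slc6a11, the GABA transporter GAT-3, went from 263 and 253 to 329 and 404 CPM (log2 0.49, edgeR adjusted p = 0.0431) and was the only call among 14 tested genes of glutamate and GABA handling. Mgst1, a microsomal glutathione transferase, went from 268 and 327 to 388 and 520.2 CPM (log2 0.59, edgeR adjusted p = 0.0127) and was the only call among 24 antioxidant genes. Sfrp5, a secreted Wnt inhibitor, went from 13.4 and 16.7 to 42.8 and 33.5 CPM and was the only call among 21 Wnt genes.

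Cholesterol synthesis was the list with the most falls. Of 27 tested members 6 fell and 0 rose, beside 0.399% of all genes called lower. Of the 27 changes 23 were negative, beside 49.6% over all genes. The median was -0.55 on the log2 scale against 0.0028 over all genes. In 20 of the 27 both old mice lay below both young mice, which held for 20.2% of all genes tested. The summed level was 3099.6 and 3331 CPM in KO young and 2312 and 2309 CPM in KO old mice, a ratio of 0.719. The 6 calls depended on the test and on the cells used. With DESeq2 Hmgcs1 alone kept its call. Without cells with UMIs of other cell types Fdft1, Fdps, Msmo1 and Sqle lost their call, without cells with stem cell gene UMIs Sqle alone kept it, and with the strict hashtag call none did.

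In the order of the pathway, Hmgcs1 (HMG-CoA synthase) came first, with 329 and 258 CPM in KO young and 157 and 132 CPM in KO old mice (log2 -0.996, SE 0.14, edgeR adjusted p = 3.25e-05). Fdps, which makes farnesyl pyrophosphate, went from 101 and 126 to 71.4 and 60.99 CPM (log2 -0.75, edgeR adjusted p = 0.0115). Both old mice were below both young mice in Hmgcs1 and Fdps.

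At the steps committed to sterols, Fdft1 (squalene synthase) went from 188 and 195 to 129 and 100.5 CPM (log2 -0.70, SE 0.14, edgeR adjusted p = 0.00526). Sqle (squalene epoxidase), a control point of the pathway, went from 148 and 166 to 86.6 and 87.3 CPM (log2 -0.86, SE 0.15, edgeR adjusted p = 0.00109). Msmo1, a sterol methyl oxidase, went from 607 and 742 to 416 and 515 CPM (log2 -0.55, edgeR adjusted p = 0.0108). Again the age groups did not overlap. Insig1, which holds the sterol sensor SCAP and SREBP in the endoplasmic reticulum and is itself an SREBP target, went from 232 and 274 to 167 and 157 CPM (log2 -0.64, SE 0.13, edgeR adjusted p = 0.00528).

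Other members lay lower without passing. Mvd, a decarboxylase early in the pathway, stood at 48.4 and 54.7 CPM in KO young and 22.8 and 35.9 CPM in KO old mice (edgeR adjusted p = 0.0555), and Cyp51 at 111 and 138 against 86.1 and 81.3 CPM (edgeR adjusted p = 0.0599). Srebf2, the main regulator of the pathway, stood at 106 and 107 against 97.5 and 74.1 CPM. The 4 members with a positive change were Insig2, Acat2, Srebf1 and Ggps1, and Srebf1, which drives mainly fatty acid genes, stood at 206 and 238 against 274 and 306 CPM (log2 0.37, edgeR adjusted p = 0.189).

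In WT astrocytes 6 of the 27 fell and 2 rose (Srebf1 and Srebf2), beside 7.32% of all genes called in either direction. The median was -0.20, and the summed level was 3077 and 3041 CPM in the young and 2594 and 2586 CPM in the old mice. Of the 6 genes that fell in KO, Insig1 alone passed the interaction test, at 184 and 157 CPM in WT young and 199.7 and 203 CPM in WT old mice (interaction log2 -0.87, SE 0.19, edgeR adjusted p = 0.0116). Srebf2, not called in KO, passed it too (interaction log2 -0.95, SE 0.25, edgeR adjusted p = 0.0366). It stood at 65.8 and 70.8 CPM in WT young and 99.9 and 117.8 CPM in WT old mice.

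**Figure D2:**
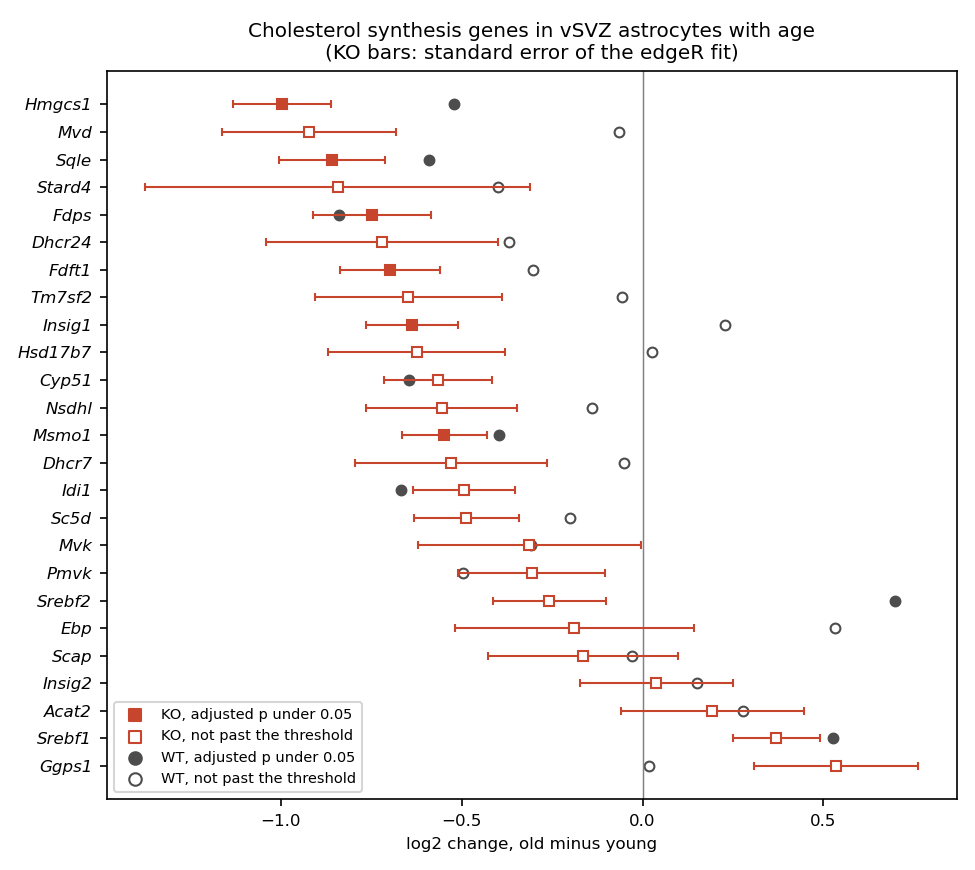
Change with age (log2, old minus young) of 25 of the 27 tested cholesterol synthesis genes in vSVZ astrocytes. Squares with bars are KO with the standard error of the edgeR fit, circles are WT, and filled symbols are past the threshold. The KO squares lie below 0 for 21 of the 25 genes shown.

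RefSeq promoters were at hand for 3 of the 6 genes that fell, and they are shown because these genes moved together. The letters TCACNCCAC, a form of the sterol regulatory element, and CCAAT, the box of the factor NF-Y, were searched on both strands, with matches in capitals (ATTGG is CCAAT on the other strand). Hmgcs1 held 1 and 4 matches, Insig1 0 and 1, and Msmo1 0 and 3. Of all 32851 promoters 1.24% held TCACNCCAC and 37.4% held CCAAT, while of 28 promoters of tested cholesterol genes 1 and 19 did.
Hmgcs1, chr13:119690101-119690400, plus strand: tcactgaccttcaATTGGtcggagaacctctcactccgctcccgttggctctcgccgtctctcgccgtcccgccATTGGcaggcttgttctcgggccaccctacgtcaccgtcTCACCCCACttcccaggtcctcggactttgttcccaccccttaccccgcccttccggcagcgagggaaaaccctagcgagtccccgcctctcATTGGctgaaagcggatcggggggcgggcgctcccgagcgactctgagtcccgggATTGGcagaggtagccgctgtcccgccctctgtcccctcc
Insig1, chr5:28071162-28071461, plus strand: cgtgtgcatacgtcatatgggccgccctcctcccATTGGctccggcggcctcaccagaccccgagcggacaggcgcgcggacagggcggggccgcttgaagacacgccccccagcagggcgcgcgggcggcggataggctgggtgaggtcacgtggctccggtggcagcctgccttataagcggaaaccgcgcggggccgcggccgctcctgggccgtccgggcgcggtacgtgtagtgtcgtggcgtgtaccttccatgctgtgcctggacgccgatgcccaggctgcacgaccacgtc
Msmo1, chr8:64733529-64733828, minus strand: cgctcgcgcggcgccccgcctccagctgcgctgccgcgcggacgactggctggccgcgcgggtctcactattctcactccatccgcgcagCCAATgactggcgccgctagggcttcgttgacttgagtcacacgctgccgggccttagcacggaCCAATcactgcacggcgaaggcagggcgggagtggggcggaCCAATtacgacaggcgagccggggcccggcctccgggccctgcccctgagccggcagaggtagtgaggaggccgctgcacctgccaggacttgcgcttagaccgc

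Lipid transport genes split. Clu (clusterin, an apolipoprotein) went from 8227 and 9228 to 6402 and 6528 CPM (log2 -0.43, SE 0.09, edgeR adjusted p = 0.0101). Abcg1, which exports cholesterol to lipoproteins, went from 1.49 and 2.002 CPM, 2 and 3 UMIs, to 13.3 and 20.3 CPM (log2 3.10, SE 0.63, edgeR adjusted p = 0.00576). Near-empty droplets had Abcg1 at 18.4 and 36.6 CPM in KO young and KO old, above the cells, the part of free RNA was not tested, and the call was lost without either young mouse or without the second old mouse (edgeR adjusted p from 0.065 to 0.0781). The other 18 of 20 tested genes did not pass, among them Apoe at 3641 and 4234 CPM in KO young and 4744 and 5264 CPM in KO old mice (edgeR adjusted p = 0.0968) and the exporter Abca1 at 194 and 189 against 263 and 255 CPM (edgeR adjusted p = 0.0707). None of 26 fatty acid oxidation and 27 glycolysis and glycogen genes passed the edgeR test, with medians of -0.09 and -0.16.

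A few more genes fell in the astrocytes. Ncan (neurocan), a matrix proteoglycan, went from 739 and 792 to 579 and 433 CPM (log2 -0.58, SE 0.12, edgeR adjusted p = 0.00893). Dner, a Notch ligand, went from 46.2 and 57.4 to 21.4 and 19.1 CPM (log2 -1.33, SE 0.25, edgeR adjusted p = 0.00328). Kcnn2, a calcium-activated potassium channel, went from 59.6 and 67.4 to 34.7 and 33.5 CPM. The old mice were again below the young ones. Slc9a3r1 (the scaffold NHERF1) went from 489.5 and 537 to 368 and 358 CPM, and Slc38a2 (a neutral amino acid transporter), Ddah2 (of methylarginine breakdown) and Gm47283 fell with log2 changes of -0.91, -0.82 and -0.95. The histone gene Hist1h2ae, singled out after its values were seen and one of a family of near-identical copies, had 17 and 14 UMIs in KO young and 0 UMIs in both KO old mice, at least 10.6-fold lower with 3 UMIs set for the old group. Near-empty droplets had Hist1h2ae at 165 and 44.9 CPM (not TMM-scaled) in KO young and KO old. Ddah2 was there at 193 and 111, Slc38a2 at 156 and 130 and Gm47283 at 96.5 and 40.4 CPM. All these levels were above those in the cells. Dner was there at 55.2 and 35.3 CPM, and Ncan, Kcnn2 and Slc9a3r1 also fell there but lay below the cells. The part of free RNA in these falls was not tested.

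Genes of young neurons were lower in the old mice, and they moved with neuroblast RNA in the suspension. All 8 tested neuroblast markers were on the lower side and 5 passed, beside 49.6% of all genes on the lower side and 0.399% called lower. Tubb3 (neuronal tubulin) went from 29.8 and 18.7 to 2.85 and 2.39 CPM, Stmn2 (a neuronal stathmin) from 17.1 and 14.7 to 1.43 and 4.78 CPM, and Cd24a (a surface protein of neuroblasts) from 28.3 and 22.03 to 2.85 and 3.59 CPM. Dlx6os1, a non-coding RNA of the interneuron lineage, went from 8.94 and 23.4 to 2.85 and 2.39 CPM, and Sox11, a factor of progenitors and neuroblasts, from 217 and 175 to 103 and 139 CPM (log2 -0.74, edgeR adjusted p = 0.00382). The groups were apart in all 5. In WT mice Cd24a did not pass, at 34.0 and 27.6 against 29.3 and 25.4 CPM (edgeR adjusted p = 0.76). Its interaction passed (log2 -2.77, SE 0.55, edgeR adjusted p = 0.00487). Ependymal marker UMIs (Rarres2 left out) also differed between the genotypes with age. They went from 67 and 154 to 10 and 11 in KO and from 104 and 22 to 266 and 242 in WT mice. The part of ependymal RNA in the Cd24a difference was not tested. Tubb3, Stmn2, Dlx6os1 and Sox11 fell past the threshold in WT too. Tmsb10, an actin-binding thymosin, was outside the list and went from 87.9 and 60.1 to 28.1 and 31.1 CPM (log2 -1.34, edgeR adjusted p = 0.000995).

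The same RNA made up a larger share of the UMIs in near-empty droplets than in the cells. In near-empty droplets the 11 neuroblast markers summed to 6293 CPM (not TMM-scaled) in the KO young and 2383 CPM in the KO old library, against 358 and 310.4 CPM in KO young and 137 and 163 CPM in KO old astrocytes. With Sox11 and Nrxn3 left out, 57.1% and 45.9% of the KO young and 11.3% and 10.3% of the KO old cells had a UMI of the list, and no cell held more than 16 such UMIs. Dcx, which the rule capped, stood at 12.7 and 8.68 against 0.951 and 2.39 CPM. The part of free RNA in these falls was not tested. Without cells that had a UMI of a neuroblast gene or of an ependymal marker other than Rarres2, 48 genes passed, among them C4b, Zc3hav1, Psmb8, Fbln5 and all 6 cholesterol genes, an exclusion chosen after the data were seen.

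Ependymal and oligodendrocyte precursor genes rested on few cells. Rsph1, a cilium protein, went from 5.22 and 20.7 to 0 and 2.39 CPM and Dynlrb2, a dynein chain, from 8.2 and 22.03 to 0.476 and 1.2 CPM. Of 67 and 154 UMIs of ependymal markers (Rarres2 left out) in the KO young mice, 41 and 133 were in 1 cell each, while the KO old mice had 10 and 11 such UMIs. In the WT old mice 258 of 266 and 232 of 242 were in 3 cells each. Olig2, a factor of the oligodendrocyte lineage, went from 8.2 and 8.01 to 32.8 and 17.9 CPM, and 3 cells of the first KO old mouse held 185 of its 310 UMIs of precursor markers. With astrocytes of 2000 to 12000 UMIs none of Rsph1, Dynlrb2 and Olig2 passed. Microglia, oligodendrocyte and endothelial markers had 1, 3 and 3 tested genes and 0 calls by edgeR, and the endothelial sum was highest in the second KO old mouse, at 101 and 105 CPM in KO young and 117 and 204 CPM in KO old mice.

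**Figure D3:**
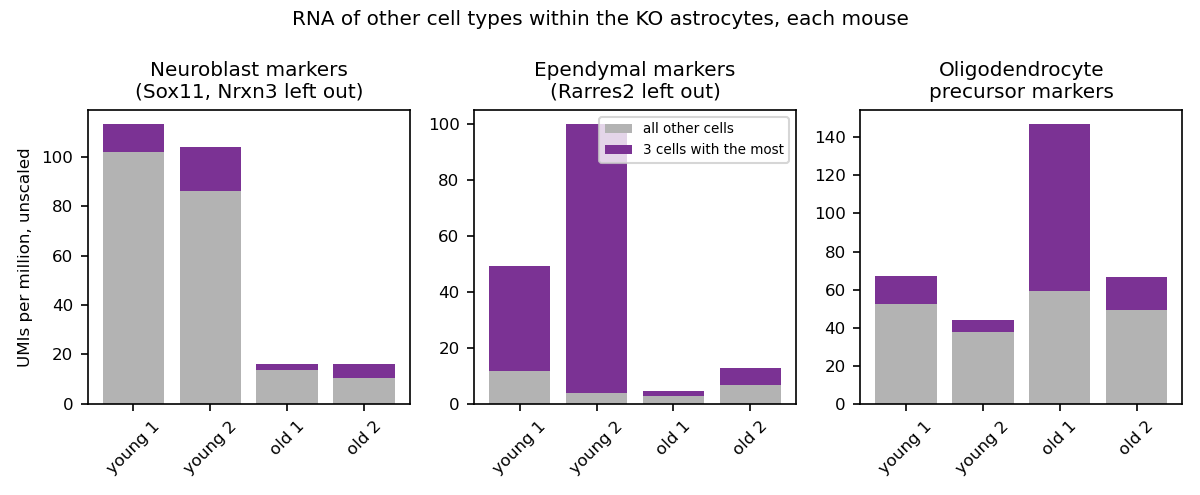
UMIs of neuroblast, ependymal and oligodendrocyte precursor markers (CPM, not TMM-scaled) in the vSVZ astrocytes of each KO mouse. Bars are split into the 3 cells with the most (purple) and all other cells (grey), and 148 of 154 ependymal UMIs of the second KO young mouse were in 3 cells.

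The remaining lists gave few or no calls. None of 79 ribosomal protein genes passed the edgeR test, with 71 of 79 on the lower side, beside 49.6% of all genes. Their sums overlapped, at 39285 and 31333 CPM in KO young and 28473 and 33043 CPM in KO old mice. None passed among 99 nuclear respiratory chain genes, 13 mitochondrial genes, 31 lysosome and autophagy genes, 16 BMP and Id genes and 19 clock genes. The lineage tracer eYFP stood at 42.5 and 15.4 CPM in KO young and 13.8 and 10.8 CPM in KO old mice (edgeR adjusted p = 0.555).

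**Figure D4:**
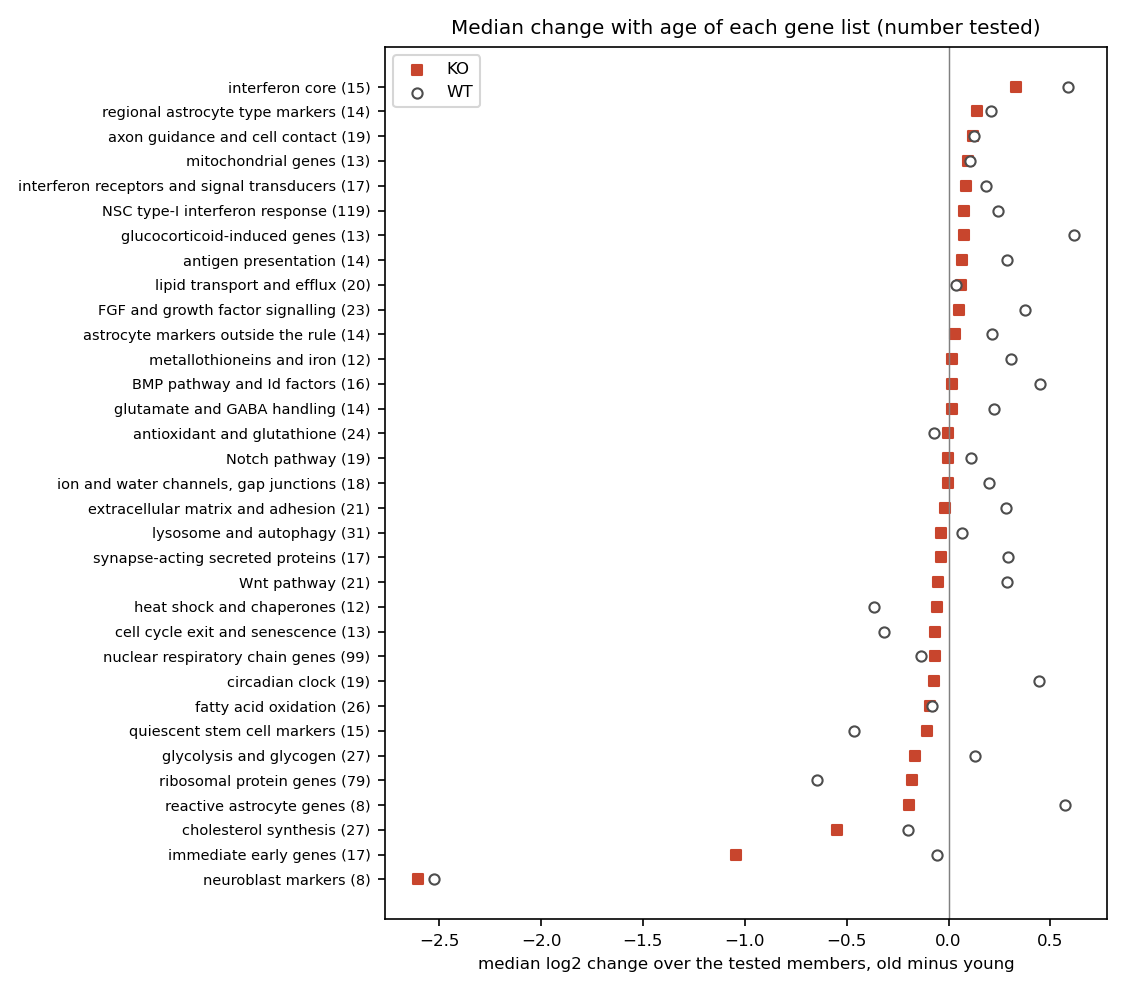
Median log2 change with age over the tested members of each gene list with at least 8 of them (number in brackets), for KO (squares) and WT (circles) vSVZ astrocytes. KO medians lie between -0.19 and 0.33 except for cholesterol synthesis (-0.55), immediate early genes (-1.04) and neuroblast markers (-2.60).

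The KO libraries also held 1038 young and 798 old astrocytes without a hashtag call, which the rule did not use and which come from the same reactions. Of the 75 genes 70 lay in the same direction there, against 62.7% of all genes tested. C4b stood at 49.4 and 119 CPM (not TMM-scaled) in young and old, Zc3hav1 at 6.58 and 28.3, Fbln5 at 8.74 and 48.5, Hmgcs1 at 283 and 197 and Sqle at 144 and 98.8 CPM. Rsph1 lay the other way, at 4.68 and 9.67 CPM. With 1 library per age these values have no test.

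WT vSVZ astrocytes, 246 young and 237 old cells, changed in 661 of the 9030 genes (7.32%), 312 higher and 349 lower. Of the 75 KO genes 60 had the same sign in WT, against 57.7% of all genes tested. A set of 33 also passed in WT, 30 of them with the same sign, which is 44.0% of the KO and 4.99% of the WT calls. The WT and KO old mice differ in age, and the young mice in chase. WT young cells were shallower, with medians of 5484 and 5872 UMIs.

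Tested directly, the change with age differed between the genotypes for 130 genes (1.44%), 12 of them among the 75. In 105 of the 130 the change was larger in WT, and 109 had passed in WT. Stmn1, a tubulin regulator of young neurons, stood at 212 and 184 against 144 and 173 CPM in KO and at 503 and 470 against 148 and 109 CPM in WT (interaction log2 1.60, SE 0.20, edgeR adjusted p = 6.78e-06). Snhg9, a non-coding RNA, stood at 52.9 and 52.7 against 42.3 and 62.2 CPM in KO and at 7.43 and 3.46 against 58.6 and 38.99 CPM in WT. In both genes the WT young mice stood apart from the other 6 mice. Near-empty droplets had Stmn1 at 3025 and 1186 CPM in KO young and KO old, and the neuroblast markers there went from 8084 to 1689 CPM with age in the WT reactions and from 6293 to 2383 CPM in the KO reactions, and their part in this difference was not tested. Abcg1 crossed over, from 16.98 and 12.1 to 2.66 and 1.7 CPM in WT while it rose in KO (interaction log2 5.89, SE 0.96, edgeR adjusted p = 0.000453).

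**Figure D5:**
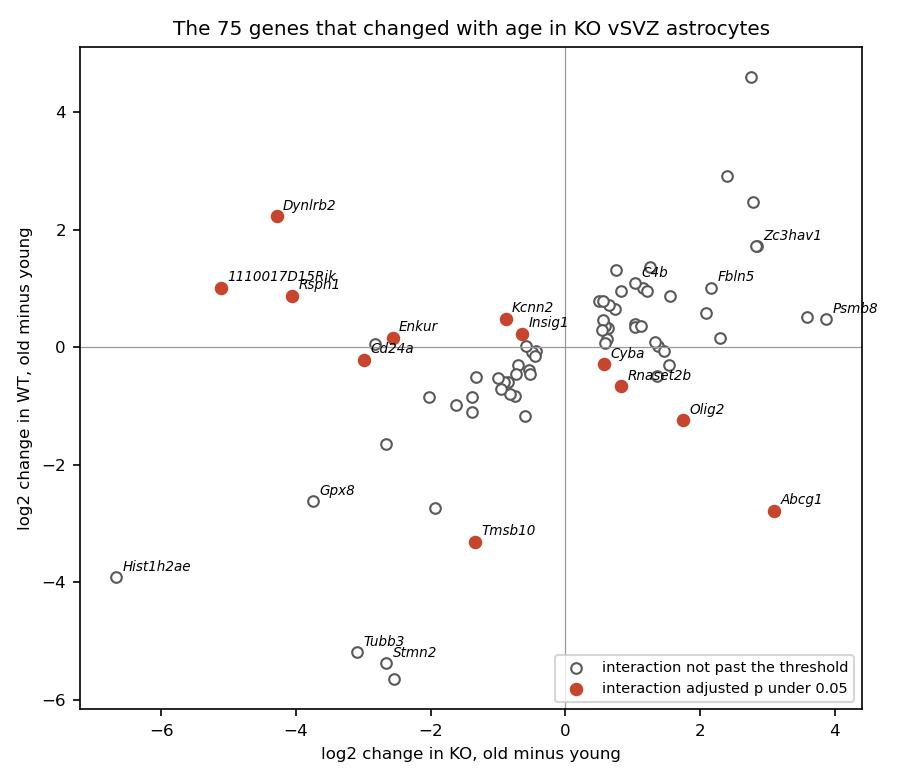
Change with age (log2, old minus young) in KO (horizontal) and WT (vertical) vSVZ astrocytes of the 75 genes past the threshold in KO. Filled points are the 12 genes whose interaction also passed. C4b, Zc3hav1 and Fbln5 lie at the upper right, Tubb3 and Stmn2 at the lower left, and Abcg1 and Olig2 at the lower right.

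KO astrocytes of the RoB, the study's pool of olfactory bulb, striatum and rostral migratory stream, 80 young and 99 old cells of the same reactions, changed in 4 of 6656 genes (0.0601%), with 597 at an unadjusted p under 0.05. Id3, a BMP target, went from 152 and 146 to 316 and 419 CPM (log2 1.33, edgeR adjusted p = 0.000715). In the vSVZ Id3 stood at 296.5 and 330.4 against 305.4 and 324.1 CPM. Agt (angiotensinogen), higher in some astrocyte regions, went from 376 and 502 to 129.7 and 244 CPM, and Stmn1 from 152 and 226 to 69.2 and 69.2 CPM. Microglia and macrophage marker sums were 3119 and 896.0 CPM in the young and 69.2 and 964.9 CPM in the old RoB mice, and their part in these results was not tested. C4b stood at 32.4 and 46.5 against 108 and 71.1 CPM (log2 1.09, edgeR adjusted p = 0.337). The cholesterol sum was 3300.1 and 2837 CPM in the young and 2201 and 2501 CPM in the old mice, with 0 of 26 genes past the edgeR threshold. Of the 58 vSVZ genes tested in RoB 48 had the same sign, against 57.4% of all genes tested in both. Those with the other sign included 5 of the rises described above. Their RoB log2 changes were -0.99 for Sfrp5, -0.84 for Itih3, -0.80 for Lrig1, -0.56 for Cep85l and -0.33 for Spon1. None of these passed the edgeR test in RoB.

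The count of 75 depended on the test and on the cells used. DESeq2 called 10 genes, among them Zc3hav1, Fbln5, C4b, Clu, Hmgcs1, Tmsb10, Cd24a and Tubb3. A stricter hashtag call, which left 21 to 80 cells per KO mouse, gave 0 by edgeR, with 181 at an unadjusted p under 0.05. Leaving out each KO mouse in turn changed the split, to 13 higher and 37 lower without the first young mouse and 38 higher and 17 lower without the first old mouse, and left 40 (without the second young mouse), 41 (without the second old mouse) or up to 55 genes, and 8 of 43 named genes kept their call each time, namely C4b, Cd24a, Fbln5, Hmgcs1, Psmb8, Spon1, Sqle and Zc3hav1.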

How the data were processed

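The deposited data were UMI counts per gene and barcode and hashtag counts per barcode. Per the labels and the study's methods, the authors filtered index-hopped reads, counted RNA with kallisto and bustools on GRCm38 and hashtags with CITE-seq-Count, and used Scanpy 1.6.0. Of 32287 gene identifiers 32235 were found in GENCODE vM21. The hashtag column of unclear reads (1 column) and 1 sample without a group were not used. The members, the gene lists and the tests were chosen with earlier results of these data known.

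UMI counts of the cells of a mouse were summed. The 8 vSVZ mice entered 1 edgeR 4.0.16 quasi-likelihood fit (R 4.3.3, filterByExpr, TMM, robust), with contrasts for age in KO, age in WT and their difference, and RoB mice had a fit of their own. The 9 rule genes were removed after normalization. P-values were Benjamini-Hochberg adjusted with a threshold of 0.05. Named genes were the 12 largest rises and 12 largest falls with a mean of at least 30 CPM and no overlap, up to 6 calls per list, up to 10 interaction calls, the rule genes and both receptors. Other genes were named from the lists for their role. Predicted doublets (Scrublet, 2.67% of KO young and 1.03% of KO old cells) were kept. Alternatives included DESeq2 1.42.0, other filters on cells and leaving out each mouse, and the exclusion of cells with neuroblast or ependymal UMIs was chosen after seeing the data. The fit was tested on simulated data. A few genes of these lists are not reported here.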

Additional observations from a re-analysis of the deposited data

Results flagged for a closer look

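The change with age differed between KO and WT vSVZ astrocytes, by the edgeR interaction test, for 17 of the named genes. Genes named only for their role are left out of this count. Of the 17, 13 had opposite signs. As KO change minus WT change on the log2 scale, the values above 0 were 5.886 for Abcg1, 2.992 for Olig2, 2.209 for Basp1, 1.972 for Tmsb10, 1.692 for Gm10561, 1.603 for Stmn1, 1.489 for Rnaset2b, 1.298 for Cdk2ap1 and 1.167 for Srsf3. The values below 0 were -6.518 for Dynlrb2, -4.933 for Rsph1, -3.071 for Snhg9, -2.772 for Cd24a, -1.371 for Kcnn2, -1.226 for Gm42418, -1.189 for Clasp2 and -0.8662 for Insig1. Gm42418 overlaps the ribosomal RNA region and Rnaset2b has a near-identical copy, so their counts are uncertain. Beside Dynlrb2, Rsph1 and Cd24a, 258 of 266 and 232 of 242 ependymal UMIs of the WT old mice were in 3 cells each. The part of those cells was not tested. Each group was 1 reaction, so genotype, age and reaction cannot be told apart.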

How the results depend on the processing

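Over the 43 named genes with a call, 666 results under alternatives kept the direction, of which 410 stayed past the threshold and 256 did not, and 0 genes kept the call under every alternative. The 75 calls for age in KO became 152 without a filter on low counts, 10 with DESeq2, 0 with the strict hashtag call (181 at an unadjusted p under 0.05), 17 without cells with stem cell gene UMIs, 25 without cells with other cell type UMIs, 48 without cells with neuroblast or ependymal UMIs, and 40 to 55 without 1 mouse. The 661 calls in WT became 263 (DESeq2), 7 (strict hashtags), 193 (without eYFP cells), 41 (stem cell gene UMIs), 203 (other cell type UMIs), 264 (neuroblast or ependymal UMIs) and 207 to 490 (without 1 mouse). The 130 interaction calls became 233 (no filter), 51 (DESeq2), 0 (strict hashtags, 417 unadjusted by edgeR), 46 (without eYFP cells), 12 (stem cell gene UMIs), 11 (other cell type UMIs) and 38 to 175 (without 1 mouse, 38 without the second WT old mouse and 48 without the second KO young mouse). The 4 RoB calls became 50 (no filter), 2 (DESeq2), 0 (only the KO mice, 329 unadjusted by edgeR), 2 (marker sum of at least 10) and 7 to 40 (without 1 mouse).

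The old to young ratio of summed neuroblast markers, 0.448, became 0.635 (strict hashtags), 0.267 (stem cell gene UMIs), 0.341 (other cell type UMIs) and 0.681 (neuroblast or ependymal UMIs), and 0.405 to 0.482 without 1 mouse. That of ependymal markers, 0.727, became 0.236 (strict hashtags) and 0.511 (stem cell gene UMIs), and reversed to 1.02 in cells of 2000 to 12000 UMIs and to 1.29 without neuroblast or ependymal UMIs, with 0.607 to 0.884 without 1 mouse. The last exclusion removes the other ependymal markers by construction, so the 1.29 is Rarres2, which also makes up most of the ependymal sum in every KO old mouse, and it removes most neuroblast markers in the same way. Complement, 1.91, became 1.72 with strict hashtags. Without 1 mouse the ratios were 1.80 to 1.98 for complement, 0.686 to 0.739 for cholesterol synthesis, 1.01 to 1.08 for the type-I interferon response, 1.02 to 1.32 for interferon core genes and 0.430 to 0.669 for immediate early genes. Most of these alternatives use fewer cells, and the causes of the shifts were not tested. In RoB the strict hashtag call and the exclusions of cells with stem cell gene, other cell type or neuroblast or ependymal UMIs could not be fitted, since mice fell under 20 cells. No paired analysis was possible because the hashtag numbers mark different mice in each group.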

Other observations

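Immediate early genes, which tissue dissociation can induce, were lower in both KO old mice, although 0 of 17 tested genes passed the edgeR test. Their sum was 3295 and 5120.1 CPM in KO young and 2355 and 2095 CPM in KO old mice. The median change was -1.04 on the log2 scale, with 16 of 17 on the lower side, beside 49.6% of all genes. Fos stood at 1105 and 1794 CPM in KO young and 651 and 664 CPM in KO old mice (SE 0.69 on a log2 change of -1.14, edgeR adjusted p = 0.695), and Egr1 at 291 and 335 against 153 and 139 CPM. The WT young mice lay far apart, at 2044 and 5320.0 CPM, and the WT old mice were at 1900.0 and 3379.9 CPM.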
